A study of Oryza sativa Japonica Group with 18 samples.

Results

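The comparison described here is between roots of rice seedlings kept without potassium for 3 d and roots of seedlings of the same age kept with potassium. It holds 6 of the 18 Affymetrix Rice Genome Arrays of the series, chosen by their labels: the 3 arrays of K+-deficient roots (LK) and the 3 arrays of K+-replete roots (CK) at 3 d. The plants were Nipponbare, a japonica cultivar of Oryza sativa, grown in hydroponic culture for 2 weeks. They were then moved either to a solution without K+ or to the full solution. Each array carried root RNA pooled from 5 seedlings, and each group had 3 biological replicates. The LK solution was made by leaving out potassium sulfate, so it also held less sulfate, although magnesium sulfate remained in both solutions. The effects of less K+ and of less sulfate cannot be told apart here. The series also sampled roots at 6 h and 5 d, each time with CK arrays of its own.

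Plant cells hold potassium in large amounts as a free ion in cytosol and vacuole, and much of the water pressure that drives root cell growth rests on it. Rice roots take it up through high-affinity transporters of the HAK/KUP family and through the inward channel OsAKT1, which a calcium-sensing pair of a CBL protein and a CIPK kinase switches on by phosphorylation. Its supply is linked to that of nitrate, the main anion that travels with K+ in the xylem, and to Na+, which can stand in for part of its osmotic role.

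The values are signal intensities that the authors normalized over all 18 arrays on a linear scale. The 25165 probe sets with the highest mean signal (44% of the 57194 on the array) were kept, and their log2 signals were compared with limma, a linear model with shared variance estimates. A probe set was called at a Benjamini-Hochberg adjusted p under 0.05. Of the kept probe sets, 3588 (14.3%) were called. Higher signals in LK were called for 2140 of them (8.50%) and lower signals for 1448 (5.75%). Most of these differences were small: the median called change was 1.33-fold upward and 1.34-fold downward. A change of 2-fold or more was found in 155 called rises and 79 called falls, and one of 4-fold or more in 8 and 6. The CK and LK arrays did not overlap in 3509 of the 3588 called probe sets, against 7459 of all those kept.

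The balance of rises and falls depended on the scaling. Rises made up 59.6% of the calls on the deposited scale, 45.7% after quantile normalization and 44.9% after median centring of each array, although the median log2 fold change of all kept probe sets was only 0.04 before and 0.00 after quantile normalization. CK replicate 1 lay apart from the other CK arrays, with a correlation of 0.986 to 0.988 against 0.994 between CK replicates 2 and 3, and its median kept signal was 162 against 171 to 175 on the other arrays. Without that array, 1386 rises and 1335 falls were called. The share called also grew with the signal, from 8.03% in the dimmest of 4 signal classes of equal size to 18.9% in the brightest, while the median standard error (SE) of the log2 fold change fell from 0.16 to 0.07. A difference in whole-root RNA can come from fewer cells of a type or from less RNA per cell, and these cannot be told apart.

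**Figure D1:**
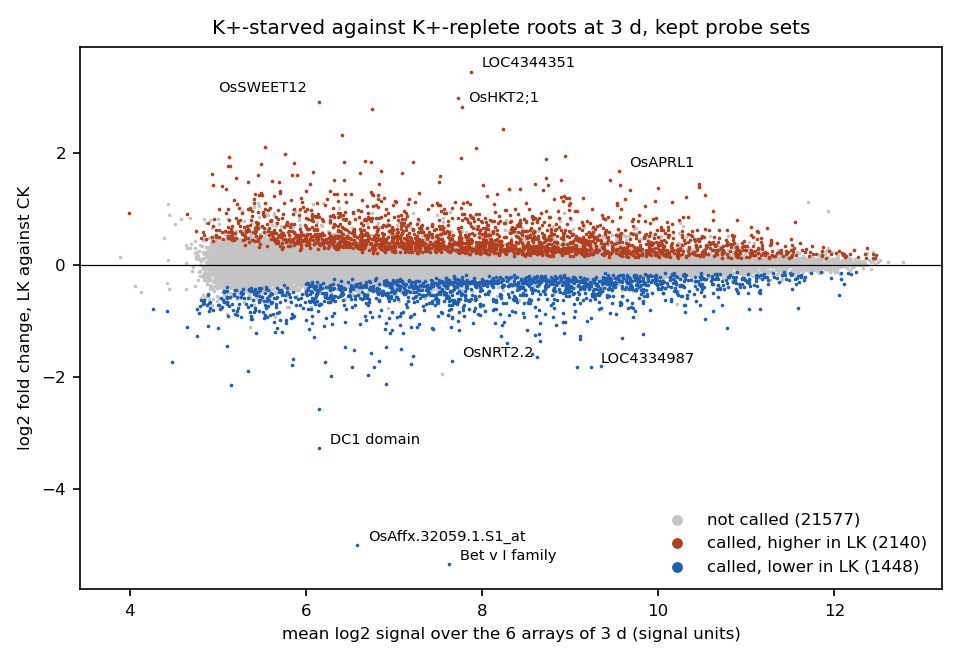
Log2 fold change of LK against CK at 3 d for the 25165 kept probe sets, plotted against the mean log2 signal over the 6 arrays. The 2140 called rises and 1448 called falls mostly lie within 2-fold, and the largest falls reach below -5 on the log2 scale.

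The largest rise was at LOC4344351, a gene with no symbol in the annotation. Its signal was 69.2, 66.8 and 77.0 on the CK arrays and 779, 705 and 871 on the LK arrays, an 11.1-fold difference (log2 fold change 3.46 ± 0.10 SE, adjusted p = 1.03e-12). The next was the Na+ transporter OsHKT2;1, which takes up Na+ into roots short of K+. Its probe set, named by the study only, read 73.0, 72.7 and 80.3 in CK and 694, 489 and 630 in LK (8.03-fold, adjusted p = 1.25e-11). LOC4340075 rose on both of its probe sets. The brighter read 85.4, 88.9 and 73.2 in CK and 590, 671 and 499 in LK (7.11-fold), and the other rose 6.92-fold. In all of these the dimmest LK array stood several-fold above the brightest CK array.

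Behind these, the rises named by a fixed rule included genes of hormone and stress pathways at low signal. The dehydrin RAB21, a protein of drying tissue that abscisic acid (ABA) induces, read 80.1, 56.4 and 34.0 in CK and 193, 173 and 219 in LK (3.43-fold, adjusted p = 8.92e-04). OsPSY3, a phytoene synthase at the head of the carotenoid pathway that also feeds ABA synthesis, read 48.3, 63.6 and 58.9 in CK and 196, 216 and 197 in LK. GRXC1, a glutaredoxin, read 30.5, 41.3 and 23.3 in CK and 79.1, 97.8 and 84.4 in LK (2.75-fold). The rule took only called probe sets without overlap, so these groups are apart by choice. The CK arrays of RAB21 differed more from each other than its LK arrays did. Among brighter genes, OsPPDKB, a pyruvate orthophosphate dikinase, rose 2.40-fold from a mean signal of 959 ± 94.2 (SD) to 2301 ± 205. OsAPRL1, a protein similar to the sulfate assimilation enzyme APS reductase, read 842, 871 and 792 in CK and 1976, 1942 and 1907 in LK. Of the 5 kept genes of that family OsAPRL5 alone fell, by 1.16-fold (adjusted p = 0.048), and the other 3 were not called. The fall of OsAPRL5 lost its call on leaving out any array but CK replicate 1.

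The deepest fall was in a transcript of the Bet v I family, a group of small pathogenesis-related proteins. Its probe set read 1389, 1169 and 1249 on the CK arrays and 23.7, 27.4 and 45.6 on the LK arrays (-39.4-fold, log2 fold change -5.36 ± 0.18 SE). A probe set that the annotation ties to no gene read 638, 609 and 415 in CK and 14.6, 14.8 and 22.5 in LK (-32.1-fold). A probe set for a protein with a DC1 domain read 243, 240 and 188 in CK and 16.7, 20.7 and 34.4 in LK (-9.33-fold). The LK signals of these 3 probe sets lie at or near the median of all probe sets on the arrays (22.1 to 23.1), where a signal cannot be told from background, so these folds depend on the background level. LOC4334987, without a symbol, fell from a bright level: it read 1133, 1194 and 1074 in CK and 300.1, 327 and 335 in LK, and its second kept probe set fell to a like degree (-3.54-fold and -3.48-fold). OsSub6 (LOC4325624), a putative subtilisin protease, read 694, 727 and 666 in CK and 197, 214 and 264 in LK.

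**Figure D2:**
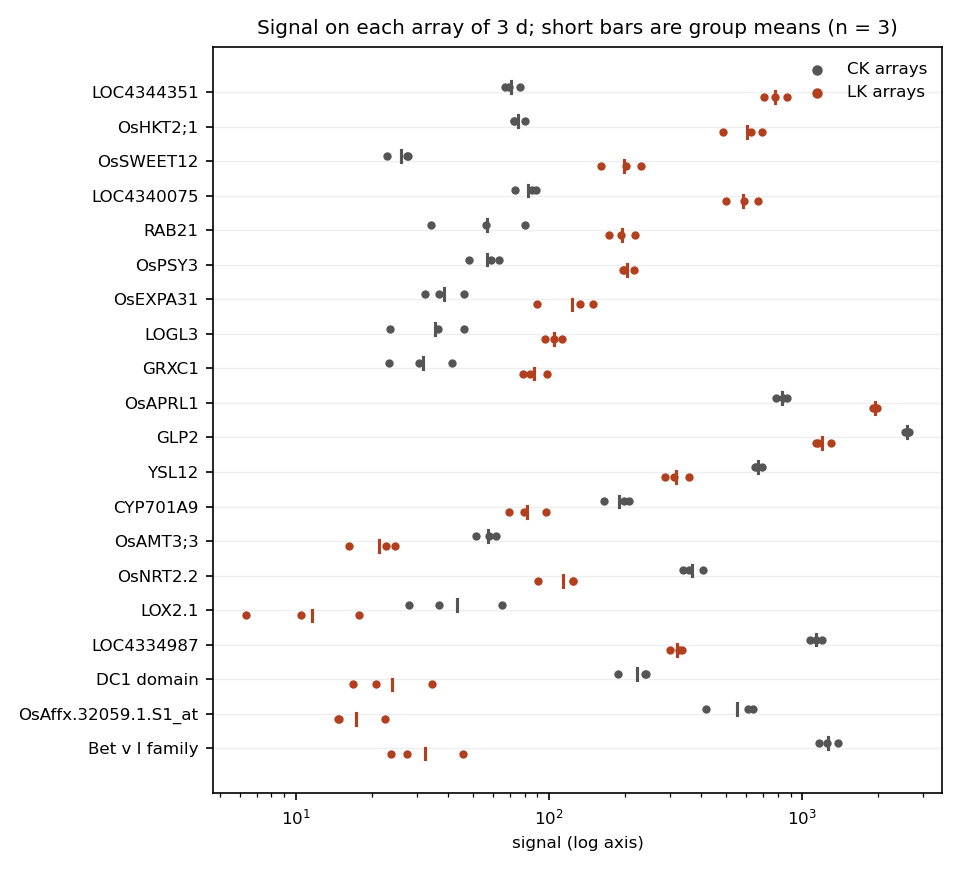
Signal on each of the 6 arrays of 3 d, on a log axis, for 10 probe sets that rose and 10 that fell in LK, with bars at the group means (n = 3). They run from LOC4344351 (71.0 to 785 on average) to the Bet v I transcript. The largest changes were picked among called probe sets without overlap, so the separation of CK and LK arrays follows from the choice.

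The listed genes of K+ transport changed little, and the few calls went in both directions. Genes entered these lists by their symbol, so OsHKT2;1, described above, is not among them. Of 15 kept HAK/KUP transporters, 2 were higher and 2 lower. Of all 14751 genes tested with 1 probe set each, 10.2% were higher and 6.35% lower. OsHAK1, a high-affinity K+ uptake transporter, read 2024, 2093 and 1998 in CK and 2478, 2449 and 2521 in LK (1.22-fold, adjusted p = 9.88e-05), and its second probe set rose 1.27-fold. OsHAK7 rose 1.32-fold from a mean of 1347 to 1777. Both rises are small, but no LK array reached down to the CK range. OsHAK12 (-1.17-fold) and OsHAK25 (-1.19-fold) were lower at adjusted p of 0.047 and 0.036, and both calls were lost in the fit of the 6 arrays alone and, among other single arrays, without CK replicate 2, CK replicate 3 or LK replicate 3. OsHAK5, another high-affinity transporter, was among the brightest of the family and was not called (mean 3496 in CK and 3375 in LK, adjusted p = 0.52).

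The listed K+ channels, which leave out AKT2/3 and SKOR, split in the same way. OsAKT1 read 1149, 1191 and 1221 in CK and 1069, 1070.0 and 1094 in LK, a log2 fold change of -0.14 ± 0.07 that was not called (adjusted p = 0.21). Among tandem-pore channels, which sit mostly in the vacuolar membrane, OsKCO1 rose 1.37-fold (192, 253 and 257 in CK, 316, 297 and 347 in LK). OsTPK3 fell by 1.47-fold, with 301, 293 and 318 in CK against 195, 207 and 219 in LK, and OsKCO2 fell by 1.33-fold, a call lost without CK replicate 3 or LK replicate 1. OsHKT1;5, which draws Na+ out of the xylem, read 51.2, 66.5 and 61.9 in CK and 34.1, 36.6 and 38.8 in LK (-1.64-fold). This dim probe set was not called with a floor of 50.

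Kinases of the calcium pathway that acts on K+ uptake were called in both directions. Of 22 kept CIPK genes 5 rose and 3 fell (4 and 3 under quantile normalization), against 10.2% higher and 6.35% lower of all 14751 genes tested with 1 probe set each, and of 7 CBL calcium sensors 1 was higher. OsCIPK06 read 69.4, 65.7 and 75.7 in CK and 164, 179 and 160 in LK (2.39-fold). OsCIPK23, the kinase that activates OsAKT1 together with OsCBL1, was far brighter, with 1545, 1783 and 1748 in CK and 2817, 2605 and 2669 in LK (1.59-fold, adjusted p = 6.87e-07). Its second probe set did not move (log2 fold change 0.09, adjusted p = 0.40), and the disagreement was not resolved. CBL5 rose 1.54-fold, while OsCIPK10 (-1.21-fold), OsCIPK31 (-1.33-fold) and OsCIPK17 (-1.41-fold) fell. The groups of OsCIPK10 overlap, and its call was lost with the replicate block and without CK replicate 1, CK replicate 3, LK replicate 1 or LK replicate 3. OsCIPK31 lost its call without a filter and without CK replicate 1, CK replicate 3, LK replicate 2 or LK replicate 3. OsCIPK17 lost it without CK replicate 2, CK replicate 3 or LK replicate 1. Without CK replicate 3, 6 CIPK genes were higher and none lower. Of the calcium-dependent kinases none of 17 rose and 2 fell: OsCDPK9, by 1.48-fold, and OsCCaMK, the kinase of root symbiosis, by 1.27-fold on 1 of its probe sets (not called without LK replicate 2). Among 24 WNK and MAP kinases OsWNK7 rose 1.92-fold (278, 297 and 307 in CK, 624, 516 and 552 in LK), OsWNK8 and OsWNK5 each rose 1.57-fold, and OsWNK9 fell by 1.27-fold. The study had chosen several of these kinases and transporters from these samples, and the directions of those are not independent evidence.

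Genes of nitrogen uptake were lower where they were called, against 6.35% lower and 10.2% higher of all genes tested. Both kept nitrate transporters fell, OsNRT2.2 in every alternative run and OsNRT2.3 with less support. OsNRT2.2, a high-affinity nitrate transporter, read 356, 406 and 339 in CK and 125, 90.1 and 124 in LK (-3.25-fold, adjusted p = 7.25e-07). Its probe set is of the kind that can bind near-identical transcripts, and OsNRT2.2 has such a copy in the genome, so the signal may belong to either. OsNRT2.3, which loads nitrate into the xylem, read 58.9, 66.0 and 73.0 in CK and 34.1 to 48.1 in LK (-1.57-fold), and its call was lost with a floor of 50 and without CK replicate 2, CK replicate 3 or LK replicate 1. Ammonium transporters were lower in 3 of 8 and higher in none: OsAMT3;3 (-2.70-fold, dim and not called with a floor of 50), OsAMT2;1 (-1.31-fold) and OsAMT1;2 (-1.27-fold). OsAMT1;2 was the brightest of these, with 1940, 1872 and 1741 in CK and 1596, 1321 and 1456 in LK, but its call was lost without CK replicate 1, CK replicate 2, LK replicate 2 or LK replicate 3. In assimilation the changes were under 1.35-fold. The nitrate reductase NIA1, the plastid glutamine synthetase OsGLN2 and the ferredoxin-dependent glutamate synthase Fd-GOGAT fell, and the cytosolic glutamine synthetase OsGLN1;2 and the NADH-dependent glutamate synthase GLT2 rose. These 5 calls were weak, with adjusted p from 0.015 to 0.049, and none of them was made when the 6 arrays were fitted alone.

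Genes for phosphate moved upward where they were called, in 4 of 12, against 10.2% higher and 6.35% lower of all genes tested. OsPht1;4, a root phosphate transporter, read 261, 316 and 323 in CK and 723, 568 and 768 in LK (2.29-fold, adjusted p = 4.14e-06). OsPht1;8 rose 1.17-fold, the transcription factor OsPHR3 1.38-fold and OsSPX4, an inhibitor of the phosphate response, 1.18-fold. OsSPX1 and OsSPX2, which phosphate shortage induces, were not called (log2 fold changes -0.15 and -0.24). Without CK replicate 1, and likewise without LK replicate 3, 2 of the 12 were called. The median of the list was 0.06, close to the 0.05 of all 14751 genes tested with 1 probe set each.

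Some genes of iron uptake were lower. Rice takes up iron both as ferrous ions, through IRT transporters, and bound to mugineic acids, chelators made from nicotianamine and carried by yellow stripe-like (YSL) proteins. Of 17 kept genes 5 fell, 2 rose and 10 were not called, with a median of -0.11. Over all genes tested 6.35% fell and 10.2% rose, with a median of 0.05. The nicotianamine synthase OsNAS1 read 512, 756 and 848 in CK and 247, 368 and 431 in LK (-2.02-fold, adjusted p = 0.017). OsNAS2, its neighbour in the genome, read 670.2, 894 and 998 in CK and 300.2, 512 and 537 in LK (-1.90-fold, adjusted p = 0.012). In both genes replicate 1 was the lowest array of either group, and neither was called without LK replicate 1 or without a filter. OsNAS1 was also not called without CK replicate 2 or CK replicate 3. OsIRT1 read 93.4, 91.9 and 77.7 in CK and 42.7, 50.8 and 61.1 in LK (-1.70-fold). YSL12, a member of that family with no role assigned here, read 693, 663 and 650 in CK and 358, 286 and 311 in LK (-2.10-fold, adjusted p = 6.97e-06), and OsYSL14 fell by 1.34-fold. The third synthase, OsNAS3, moved the other way, 1.17-fold upward (adjusted p = 0.022, a call lost after median centring and without CK replicate 2, CK replicate 3 or LK replicate 1), as did OsbHLH063, a repressor of the iron deficiency response (1.77-fold, 50.4, 53.1 and 48.3 in CK, 80.7, 91.3 and 96.5 in LK). The exporter of deoxymugineic acid, tom1, and its synthesis enzyme OsNAAT1 were not called. Without LK replicate 1, 3 genes of the list fell and 1 rose.

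Transporters of other metals were split. Of 24 genes 5 fell and 3 rose on the deposited scale, and 8 fell and 2 rose after quantile normalization. On the deposited scale 6.35% of all genes tested fell and 10.2% rose. OsNramp5, the main manganese uptake transporter of rice roots, read 1231, 1510.0 and 1418 in CK and 1015, 955 and 1045 in LK (-1.38-fold, adjusted p = 6.69e-04). The copper transporter OsCOPT1 fell by 1.26-fold from a mean of 3407, and NRAMP4 fell by 1.46-fold. The zinc transporters OsZIP4 and OsZIP5 rose 1.33-fold and 1.26-fold, the latter not called without CK replicate 3 or LK replicate 1. Of 7 metallothioneins, small cysteine-rich proteins that bind metals, 3 rose by 1.31-fold or less and none fell; without CK replicate 1 or LK replicate 1, 1 rose.

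**Figure D3:**
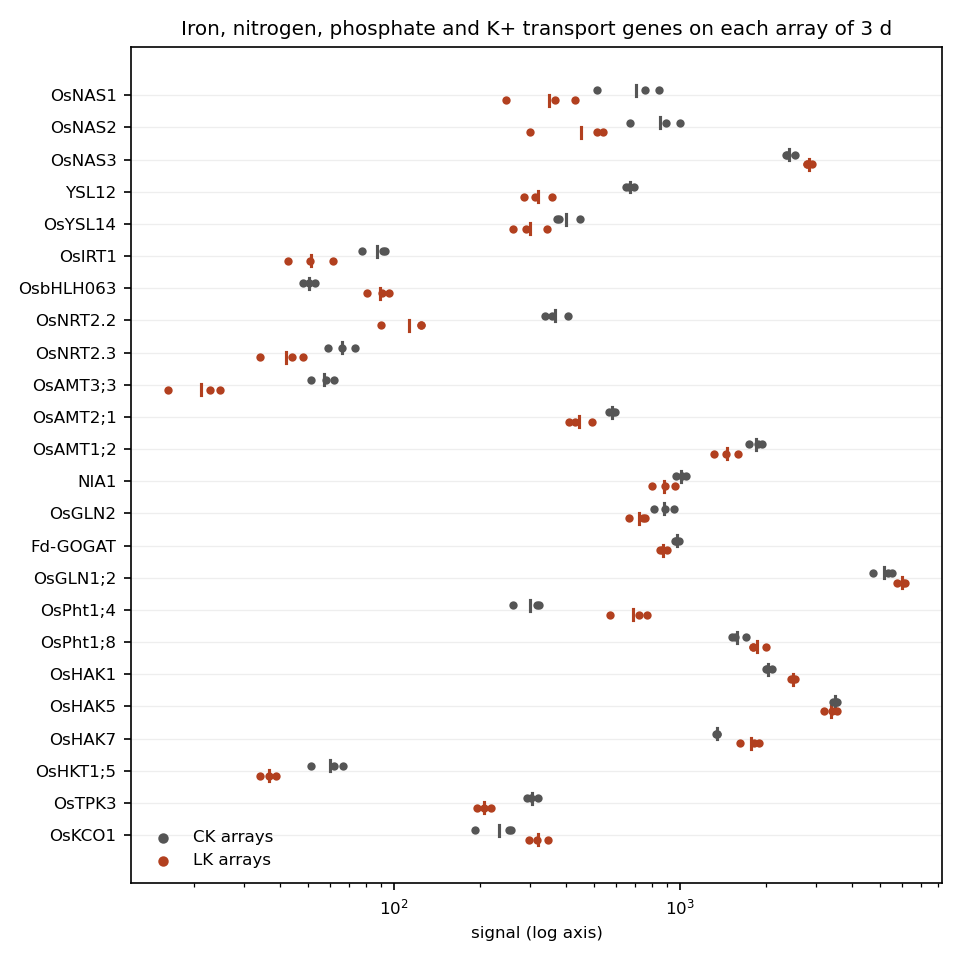
Signal on each array of 3 d, on a log axis, for genes of iron, nitrogen, phosphate and K+ transport, with bars at the group means (n = 3). The nitrogen transporters, OsNAS1, OsNAS2, YSL12 and OsIRT1 sit lower in LK, OsPht1;4 higher, and OsHAK5 in the same range in both groups.

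Among lists with 7 or more kept genes, heat shock proteins, the chaperones that hold or refold damaged proteins, had the highest share of called rises. Of 18 kept heat shock genes 11 rose and 1 fell, against 10.2% and 6.35% of all genes tested with 1 probe set each. The median log2 fold change of the list was 0.42. OsHsp23.2 read 294, 353 and 363 in CK and 698, 827 and 783 in LK (2.28-fold). OsHsp24.1 read 394, 377 and 369 in CK and 770, 722 and 751 in LK (1.97-fold, adjusted p = 2.76e-08). OsHsp16.0 read 73.1, 72.6 and 73.5 in CK and 211, 128 and 197 in LK. In each of these the LK arrays all lay above the CK arrays. The protein-unfolding factors CLPB-M and CLPB-C rose 1.51-fold and 1.21-fold, and HSP81-1, of the HSP90 family, 1.10-fold. The exception was OsHsp18.8, which fell by 1.36-fold from a mean of 998. Of 15 heat stress transcription factors 6 rose and none fell. OsHsf-05 led these with 133, 173 and 169 in CK and 547, 368 and 380 in LK (2.73-fold). The proteasome showed no such change: none of its 15 subunits was called, and their log2 fold changes ran from -0.01 to 0.13. After quantile normalization the counts were the same for both lists, and without CK replicate 1, 9 heat shock genes and 5 factors were called upward.

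A few genes that ABA induces, and a few that restrain its signal, rose. Of 8 late embryogenesis proteins and dehydrins 3 rose and none fell, with a median of 0.47. RAB16B, next to RAB21 in the genome, rose 2.26-fold (52.7, 39.9 and 32.2 in CK, 101, 87.7 and 93.1 in LK). RAB16C was not called, and its CK arrays read 100.1, 73.2 and 16.7. OsDhn1 rose 1.36-fold on its brightest probe set and fell on 2 others (log2 fold changes -0.58 and -0.64), so it counts among the 3 rises by its brightest probe set only. Of 52 PP2C phosphatases 7 rose and 2 fell, or 7 and 5 after quantile normalization, against 10.2% and 6.35% of all genes tested. The strongest were OsPP108 and OsPP2C30, of the clade that blocks ABA signalling, with 2.73-fold and 2.46-fold rises. OsPP108 read 85.5, 72.0 and 52.7 in CK and 239, 180 and 155 in LK. The ABA hydroxylase gene OsABA8ox2, which breaks the hormone down, rose 1.65-fold (not called with a floor of 50).

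Genes listed under jasmonate synthesis were called in both directions, 6 lower and 3 higher of 15. Of all genes tested with 1 probe set each, 6.35% were lower and 10.2% higher. Those that fell were the lipoxygenases LOX2.1, LOX3, LOX1.1 and LOX5, the allene oxide synthase AOS4 and the allene oxide cyclase OsAOC. The lipoxygenases were listed by symbol, and whether each serves jasmonate synthesis was not tested. LOX1.1 read 1803, 2062 and 2129 in CK and 1488, 1469 and 1485 in LK (-1.35-fold), and LOX5 fell by 1.29-fold. LOX2.1 was dim in both groups (28.0, 36.7 and 65.1 in CK, 6.37, 10.5 and 17.7 in LK). Its LK signals lie below the median of all probe sets, so no fold is given, and with a floor of 50 it was not called (adjusted p = 0.53). Those that rose were reductases of 12-oxophytodienoic acid and related compounds: OsOPR4 (1.87-fold), OsOPR1 (1.44-fold) and OsOPR5 (1.19-fold), which lie close together in the genome. OsOPR1 and OsOPR5 lost their calls after quantile normalization, which left 1 rise and 6 falls in the list, and without CK replicate 1 or LK replicate 3 among other arrays. OsOPR7, the reductase known for jasmonate synthesis itself, was not called. None of the 12 JAZ repressors, which jasmonate induces, was called, and 9 genes of the AP2/ERF and DREB families were likewise not called although the log2 fold change of each lay above 0 (0.02 at the lowest).

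Other hormone genes were called in both directions, against 6.35% lower and 10.2% higher of all genes tested. Aux/IAA repressors of auxin signalling were lower in 6 of 23 and higher in none, led by IAA18 (73.0, 82.9 and 78.4 in CK, 46.1, 55.0 and 60.5 in LK) and IAA10 (-1.31-fold), and 8 were lower after quantile normalization but 3 without LK replicate 2. The auxin carriers OsPIN5a and OsPIN9 rose 1.92-fold and 1.89-fold, but OsPIN9 is dim and was not called with a floor of 50 (adjusted p = 0.46). Of 12 genes for cytokinin synthesis and breakdown 3 rose and 1 fell. LOGL3, which makes active cytokinin, rose 2.96-fold, while the brighter LOGL1 fell from 749 ± 5.61 (SD) to 565 ± 28.0. Gibberellin genes rose in 4 of 12 and fell in 2. OsKAO and OsGA20ox3, of the main synthesis route, rose 1.84-fold and 1.32-fold, and CYP701A9 and its near neighbour OsKO1, of the kaurene oxidase family, fell by 2.32-fold and 1.25-fold. Of 9 ethylene genes OsEIL1b alone was called, 1.46-fold upward (not called without LK replicate 3).

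Sucrose genes rose in 7 of 21 and fell in none. Of all genes tested with 1 probe set each, 10.2% rose and 6.35% fell. OsSUS1, a sucrose synthase that cleaves sucrose, rose 1.17-fold from a mean of 4028, and OsSUS4 1.28-fold. The invertase OsNIN1, which also cleaves sucrose, rose 1.26-fold. Each of these is small, and 5 genes of the list were called without CK replicate 1 or LK replicate 1. A small list of fermentation genes and alternative oxidase had 5 genes on the array. The 3 that were kept rose: the alcohol dehydrogenase Adh2 (1.28-fold), the pyruvate decarboxylase PDC2 (1.23-fold) and the alternative oxidase OsAOX1A (1.39-fold, not called without LK replicate 3). Of 9 SWEET sugar transporters OsSWEET12 (27.5, 27.8 and 22.8 in CK, 160, 202 and 232 in LK), OsSWEET14 and OsSWEET16 rose, and OsSWEET2a and OsSWEET2b fell; without CK replicate 1, 2 of the list rose and none fell. Aquaporins rose in 5 of 19 and fell in 2. The 5 that rose were all bright: OsPIP2;5 (1308, 1293 and 1381 in CK, 2089, 1894 and 2186 in LK), its neighbour OsPIP2;4, OsPIP1;1, OsPIP1;2 and the vacuolar OsTIP1;2. OsTIP4;1 fell by 1.55-fold, and the fall of OsNIP2;2 was not called in the fit of the 6 arrays alone.

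Among cell wall and surface genes, the germin-like and lignin lists were called more often downward. The shares over all genes tested were 6.35% lower and 10.2% higher. Germin-like proteins, secreted proteins of the cell wall, were lower in 4 of 8 and higher in none. GLP2 read 2643, 2616 and 2551 in CK and 1151, 1130.2 and 1301 in LK (-2.18-fold), with a second probe set at -1.64-fold, and OsGER6 read 1901, 2179 and 2191 in CK and 1199, 1143 and 1224 in LK. Of 27 lignin and phenylpropanoid genes 6 fell and 2 rose, among them Os4CL1 (-1.25-fold), OsCAD8A (-1.27-fold) and LAC3 (-1.42-fold). Cellulose synthases and related enzymes are the list that depended most on scaling: 1 of 26 was lower on the deposited scale, 11 after quantile normalization and 7 without CK replicate 1. Expansins, which loosen the wall, were called in both directions, 3 and 3 of 22. Of 22 probe sets that the study lists as class III peroxidases, 8 rose and 11 fell. The deepest were OsPrx131 (195 to 232 in CK, 78.9 to 104 in LK) and OsPrx30 (669, 714 and 719 in CK, 336, 360.5 and 340.3 in LK). OsPrx45 fell by 1.18-fold while its neighbour OsPrx46 rose 1.34-fold. The study picked this set on these samples, so its split is not independent evidence.

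**Figure D4:**
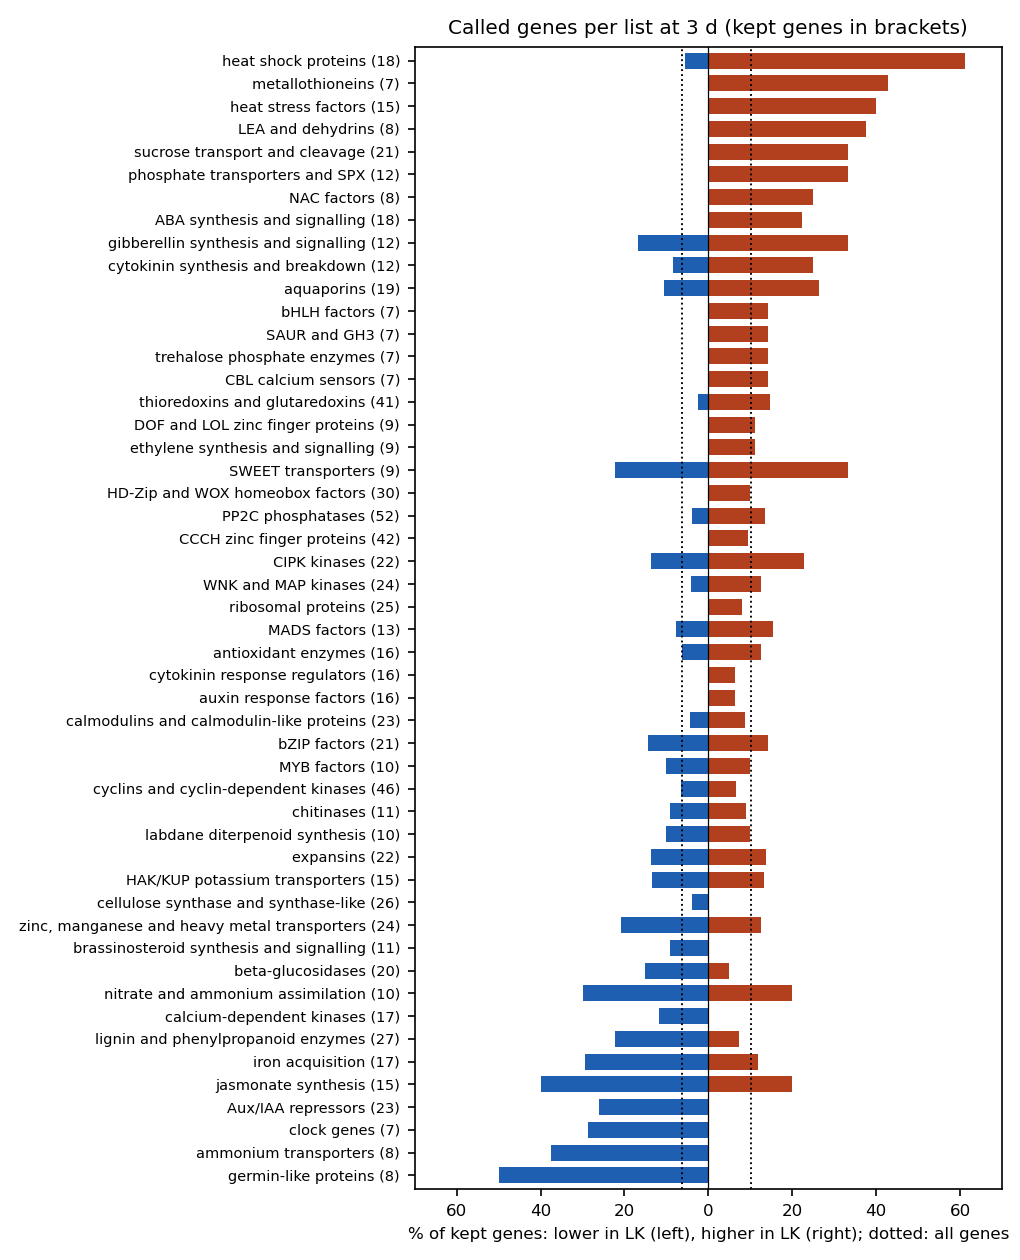
Share of the kept genes of each list called lower (left) and higher (right) in LK at 3 d, for lists with 7 or more kept genes and at least 1 call, marker lists left out. Dotted lines mark the share over all genes tested (6.35% lower, 10.2% higher); heat shock proteins reach furthest to the right and germin-like proteins furthest to the left.

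Of all 996 list genes kept, 13.5% rose and 8.73% fell, against 10.2% and 6.35% of all genes tested. Among transcription factors, bZIP genes were called in both directions (3 and 3 of 21), NAC factors rose in 2 of 8 and none of 12 stress-associated SAP proteins was called. The clock genes OsPCL1 and OsPRR1 fell by 1.56-fold and 1.25-fold. The list of cyclins and cyclin-dependent kinases, which also held inhibitors of these kinases, was called 3 up and 3 down of 46. The 3 rises were CYCH-1 and the inhibitors KRP1 and KRP5. No rise was called without LK replicate 1 or LK replicate 2, and 1 was called without CK replicate 2 or LK replicate 3. No histone H2B gene of 5 was called. The putative spermidine synthase LOC4328835 rose 3.01-fold (91.0, 115 and 115 in CK, 297, 365 and 303 in LK), whereas none of the 4 named polyamine genes was called.

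Marker genes were read to check the tissue. The root silicon transporters Lsi1 and Lsi2 were bright on every array (3654 to 4931) and not called, nor were the root patterning genes OsSHR1 and OsSCR1. OsCASP1, a builder of the Casparian strip of the endodermis, fell on all 3 of its probe sets, by 1.46-fold on the brightest (1037, 1178 and 1204 in CK, 812, 699 and 823 in LK). Photosynthesis genes were also measured in these roots: of 11 kept, OsPSAG and PORB rose 1.56-fold and 1.43-fold (PORB not without CK replicate 3 or LK replicate 1) and the others were not called. CAB2R, a chlorophyll-binding protein, was bright in both groups (3265 to 4378 in CK), and its groups overlapped. OsrbcS, the small subunit of Rubisco, read 221, 317 and 50.8 in CK against 106 to 109 in LK. Whether shoot RNA or green root tissue took part in any of the results was not tested.

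The calls at 3 d were compared with those of the same genes at the other times. At 5 d, 1295 of the 2140 rises and 1058 of the 1448 falls were called in the same direction, and 2 and 35 in the opposite one. At 6 h, 39 and 32 were called in the same direction, and 2 and 5 in the opposite one. The share of all kept probe sets called at 6 h or 5 d is not given here, so these counts have no background beside them. The effects themselves differed between 6 h and 3 d in 726 probe sets (2.88%) and between 3 d and 5 d in 259 (1.03%), by interaction tests in the same model. A fall of OsNAS2 was called at 3 d only among the 3 times, and that call was lost without a filter and without LK replicate 1. Its log2 fold change was 0.38 at 6 h (not called), -0.95 at 3 d and 0.77 at 5 d, and the differences from 3 d passed the test on both sides (adjusted p = 0.041 and 0.016). OsNAS1 had 0.20, -1.02 and 0.74, and its effect at 5 d differed from that at 3 d (adjusted p = 0.033), while the difference from 6 h was not called (adjusted p = 0.10). OsNRT2.2 was not called at 6 h and fell further at 5 d (log2 fold change -2.64, adjusted p of the difference from 3 d = 0.042). OsTIP1;2 was lower in LK at 6 h (-0.79), higher at 3 d (0.73) and higher at 5 d (0.37). OsHKT2;1 was called at 6 h already (1.36), rose to 2.99 at 3 d (adjusted p of the difference = 9.34e-06) and stood at 2.94 at 5 d.

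**Figure D5:**
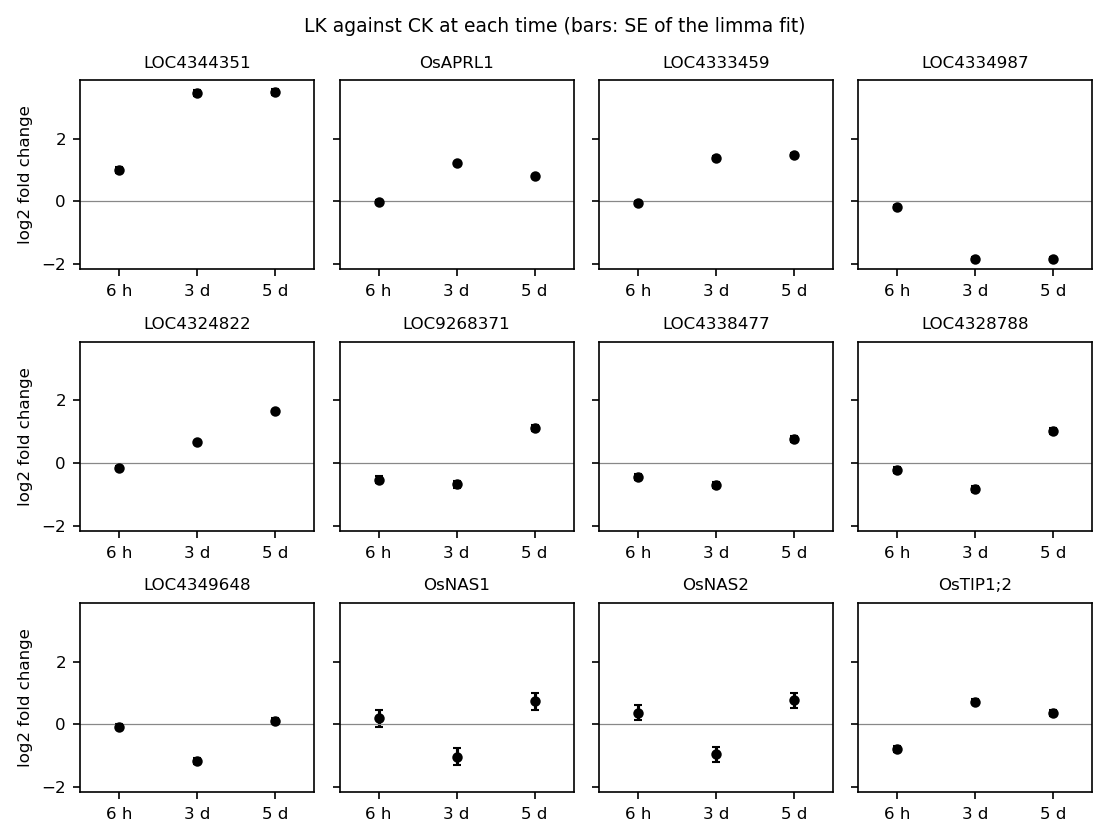
Log2 fold change of LK against CK at 6 h, 3 d and 5 d for 12 genes, with bars of 1 SE from the limma fit. OsNAS1 and OsNAS2 are below 0 at 3 d and above 0 at 5 d, and LOC4344351 goes from 1.01 at 6 h to 3.46 at 3 d and 3.50 at 5 d.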

How the data were processed

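Roots of 18 samples in 6 groups were measured on the Affymetrix Rice Genome Array, and the 6 arrays of 3 d are described. The deposited values are linear signal intensities, which the authors had scaled to each other in dChip. The submitters' processing notes also name GCOS 1.0 and MAS5. No detection calls were used, and the number of arrays limits the precision. Signals under 10 (33.5% of the values of 3 d) were set to 10 and log2 transformed, and a probe set was kept when its mean over 18 arrays ranked in the top 44% (lowest geometric mean 32.2). limma 3.58.1 in R 4.3.3, with the data.table package (1.17.8), fitted the 6 group means of all 18 arrays with a variance trend on signal; 12 degrees of freedom were residual and 5.03 came from the prior. Folds are ratios of mean signals, negative when LK is lower, and log2 fold changes and SE come from the model. The steps were tested on simulated data.

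The labels call the replicates biological, without saying that seedlings came from separate cultures, so the p-values measure the spread between these pools.

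Names come from the platform annotation, updated through RefSeq genes (assembly ASM3414082v1, used for names and neighbours only): 22436 probe sets have 1 gene, 95 several and 34663 none. Sets ending in x_at, s_at or a_at can bind several transcripts, and near-identical copies stay uncertain. A few symbols belong to several genes in the annotation. A gene in a list is represented by its brightest kept probe set. The members and the 71 lists were chosen with earlier results of these data known. Named are, in each direction, the 15 called genes with a symbol and no overlap that moved furthest, the 5 probe sets of any kind that did, up to 3 called members of each list and direction, genes the study names, the 5 strongest interactions of each kind and marker genes. Other list members in the text, such as OsHAK5, OsNRT2.3, OsPht1;8, OsSPX1, RAB16C, LOX3 and OsPIP1;1, were named after their values were seen. Alternatives were no filter, the top 30% of probe sets, quantile normalization, median centring, a floor of 50, log2 of the signal plus 32, the 6 arrays alone, a replicate block, no trend and leaving out each array. No sequences were used here.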

Additional observations from a re-analysis of the deposited data

Results flagged for a closer look

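The effect of K+ starvation at 3 d differed from that at 6 h most clearly, by the interaction test of the model, in 5 probe sets of 4 genes. The log2 fold change at 3 d minus that at 6 h was 2.45 for LOC4344351, 1.45 for LOC4333459 and -1.66 for LOC4334987. For OsAPRL1 it was 1.73 on the dimmer and 1.24 on the brighter of its probe sets, so both probe sets of this gene were close to 0 at 6 h and higher in LK at 3 d.

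The effect at 5 d differed from that at 3 d in 5 genes without a symbol. The log2 fold change at 5 d minus that at 3 d was 1.80 for LOC9268371, 1.47 for LOC4338477 and 1.85 for LOC4328788, and these 3 were called lower in LK at 3 d and higher at 5 d. It was 1.27 for LOC4349648, which was lower at 3 d (183, 195 and 189 in CK, 80.0, 83.3 and 90.8 in LK) and not called at 5 d, and 0.99 for LOC4324822, which rose at both times.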

How the results depend on the processing

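The 3588 calls, 2140 higher and 1448 lower, stayed within 1.5 times under no filter (2779), the top 30% of probe sets, both scalings, both treatments of low signals and no trend. Fitting the 6 arrays of 3 d alone, with fewer arrays to estimate the spread, gave 2075 calls, 1232 higher and 843 lower. Without a filter the effects that differed between 3 d and 6 h were 469 (726 with it) and between 3 d and 5 d 112 (259). With single arrays left out, rises ran from 1386 (without CK replicate 1) to 2170 and falls from 1010 to 1335, all calls from 2696 to 3352, and the effects that differed between 3 d and 5 d ran from 167 (without CK replicate 2; 172 without CK replicate 3) to 246; the cause was not tested. The replicate block, a term for the replicate number although deviations of same-numbered CK and LK arrays correlated at only 0.158, -0.094 and 0.03, gave 3383 calls (2019 higher, 1364 lower), 619 and 203 differing effects and 223 called list genes against 221. Of the 230 named probe sets that were called, 58 lost the call without a filter and 56 with the 6 arrays alone. The replicate block lost 18, and leaving out an array lost 35 to 48. A floor of 50 and no trend each lost 16, median centring 13 and quantile normalization 9. Only 205 were tested with the top 30% of probe sets and 227 with a floor of 50. None of those tested turned its direction. Precision falls with the signal: in the dimmest of 4 signal classes 8.03% were called.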
